A study of Mus musculus with 20 samples.

Results

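The serpins are a family of protease inhibitors, and their genes were followed here in the liver of fasted mice with and without bacterial lipopolysaccharide (LPS), a cell wall component that provokes inflammation. The members are all genes in the array annotation used whose single gene symbol starts with Serpin, a clade letter from a to i and a digit. This gave 40 of the 18193 genes with a single symbol. No clade E gene was among them, so the 40 do not cover that clade. The series holds liver RNA of 20 male mice on Affymetrix arrays, 1 array a mouse, in 4 groups of 5. Wild type mice and mice lacking medium-chain acyl-CoA dehydrogenase (MCAD-/-, the enzyme encoded by Acadm that begins medium-chain fatty acid oxidation) were given vehicle or LPS at 100 µg per 20 g body weight. All 4 groups were on a mixed BL6/SV129 background, were 50 to 60 days old and went without food for 12 h after the injection, so the fast is shared by the controls. The labels do not say how the mutant allele was made.

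A serpin offers its target protease a flexible loop as bait, and when the protease cuts the loop the inhibitor changes shape and traps the enzyme in a covalent complex. The liver secretes many clade A serpins and the clade C, D, F and G members, which hold clotting, fibrin breakdown, complement and neutrophil enzymes in check in plasma, while clade B serpins mostly stay inside cells. Some members inhibit no protease and carry hormones (Serpina6, Serpina7) or fold collagen in the endoplasmic reticulum (Serpinh1).

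Upstream sequences are shown for the members that the results below turn on, as the 250 bases before the RefSeq start of each gene on assembly GRCm38.p6, 5′ to 3′ on the gene's own strand. Of the 18 members that could be tested, 14 had such a sequence, and Serpina10, Serpina4-ps1, Serpina6 and Serping1 had none in the table used. Capitals mark matches, on either strand, to letter patterns of the binding sites of factors that act in inflammation or in liver cells. The patterns were STAT type (TTCNNNGAA), NF-kappaB type (GGGANNNNCC), C/EBP type (TTGCNNAA), ISRE type (GAAANNGAAA), HNF1 type (GTTAATNNTT) and TATAAA. A match is only a match of letters.

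The related genes Serpina3i (chr12:104262872-104263121, plus strand) and Serpina3n (chr12:104406458-104406707, plus strand) are shown because both were higher with LPS. Capitals mark in Serpina3i an NF-kappaB type and a STAT type match, and in Serpina3n 2 NF-kappaB type matches.
Serpina3i: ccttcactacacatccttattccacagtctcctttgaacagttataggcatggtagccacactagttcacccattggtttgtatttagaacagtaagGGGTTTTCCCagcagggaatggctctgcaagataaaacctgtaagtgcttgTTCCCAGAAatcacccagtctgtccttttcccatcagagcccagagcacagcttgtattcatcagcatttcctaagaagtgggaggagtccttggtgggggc
Serpina3n: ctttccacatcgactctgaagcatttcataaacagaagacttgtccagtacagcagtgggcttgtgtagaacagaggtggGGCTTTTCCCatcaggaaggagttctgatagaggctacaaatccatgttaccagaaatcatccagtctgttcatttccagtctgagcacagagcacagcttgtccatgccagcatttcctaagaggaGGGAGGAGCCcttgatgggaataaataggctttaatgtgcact
These 2 windows were identical at 173 of 278 aligned positions (62.2%).

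Serpina1b (chr12:103738190-103738439, minus strand) and Serpina1c (chr12:103904951-103905200, minus strand) are shown because they are near copies and both fell by a small amount. Capitals mark a C/EBP type match, present in Serpina1b and not in the same form in Serpina1c.
Serpina1b: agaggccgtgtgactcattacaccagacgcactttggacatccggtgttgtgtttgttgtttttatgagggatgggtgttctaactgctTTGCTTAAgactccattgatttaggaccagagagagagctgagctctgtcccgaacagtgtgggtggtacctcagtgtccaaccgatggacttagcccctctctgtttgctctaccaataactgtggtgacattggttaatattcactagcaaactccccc
Serpina1c: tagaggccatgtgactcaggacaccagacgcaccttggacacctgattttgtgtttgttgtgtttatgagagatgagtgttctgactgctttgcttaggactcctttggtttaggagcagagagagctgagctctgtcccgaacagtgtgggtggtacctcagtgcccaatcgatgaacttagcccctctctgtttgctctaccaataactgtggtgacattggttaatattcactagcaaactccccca
These windows were identical at 229 of 252 aligned positions (90.9%).

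The intracellular members Serpinb9 (chr13:33004291-33004540, plus strand), which rose with LPS in both genotypes, and Serpinb6a (chr13:34002795-34003044, minus strand), whose response differed between genotypes, each held an ISRE type match. In Serpinb6a a STAT type match overlaps it, so the capitals cover both.
Serpinb9: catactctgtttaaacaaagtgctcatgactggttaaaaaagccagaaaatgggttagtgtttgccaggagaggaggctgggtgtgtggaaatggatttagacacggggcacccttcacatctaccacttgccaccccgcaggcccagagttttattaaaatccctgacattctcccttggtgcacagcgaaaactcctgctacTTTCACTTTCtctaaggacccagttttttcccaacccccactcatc
Serpinb6a: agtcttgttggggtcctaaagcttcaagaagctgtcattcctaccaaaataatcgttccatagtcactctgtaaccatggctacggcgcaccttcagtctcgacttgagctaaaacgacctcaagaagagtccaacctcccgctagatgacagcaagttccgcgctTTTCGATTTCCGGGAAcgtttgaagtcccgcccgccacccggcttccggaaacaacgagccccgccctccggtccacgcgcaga

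Serpind1 (chr16:17331121-17331370, plus strand) had the lowest log2 change with LPS of the tested members in each genotype. Its window held no match to the 6 patterns, which says only that these letters are not in these 250 bases.
Serpind1: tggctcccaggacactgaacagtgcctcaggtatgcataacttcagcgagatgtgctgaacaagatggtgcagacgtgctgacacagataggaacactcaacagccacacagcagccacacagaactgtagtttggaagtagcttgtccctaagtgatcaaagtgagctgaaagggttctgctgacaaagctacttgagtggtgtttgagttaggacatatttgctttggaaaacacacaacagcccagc

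Over the 14 windows, the STAT type pattern was in 3 (Serpina11, Serpina3i, Serpinb6a), against 7.18% of 27025 windows of all genes. The NF-kappaB type was in 4 (Serpina12, Serpina3i, Serpina3n, Serpinh1) against 17.3%, the C/EBP type in 3 (Serpina12, Serpina1b, Serpina7) against 9.55%, and the ISRE type in 2 against 3.04%. TATAAA was in 1 (Serpina7) against 13%, and the HNF1 type in 0 against 0.992%.

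The arrays were alike in breadth: between 30.27% and 32.36% of probe sets were above 16 intensity units on each, and 0 of 190 pairs of arrays held the same values. The targeted gene Acadm followed the labels, 97.3-fold lower in MCAD-/- mice with vehicle and 43.6-fold lower with LPS (exact permutation p = 0.00794 each, two-sided, the smallest that 252 regroupings allow). Liver identity was checked by 9 hepatocyte markers on the array, such as albumin, which were above 16 units in at least 8 of 9 in every group, while 0 of 6 cholangiocyte markers were. Wild type vehicle mouse 3 and wild type LPS mouse 4 stood out in the actin control probes, which compare the 3′ and 5′ ends of the transcript as a sign of RNA quality, with log2 ratios of 3.18 and 3.69 against 1.35 to 2.34 on the other arrays. Wild type vehicle mouse 3 was the lowest of its group in 9 of the 18 tested members. MCAD-/- vehicle mouse 5 was the highest of its group in 5 and the lowest in 8, and had a mean log2 level of 3.17 over the neutrophil markers against 2.20 to 2.52 in its group. Wild type vehicle mouse 1 had 2.91 over these markers against 2.28 to 2.47 in its group, and was the highest of its group in 8 members and the lowest in 5. Their part in the results was not tested, and values without them are given beside the results that they change most.

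A gene was tested if it was above 16 units on at least 5 arrays, and 18 of the 40 serpins passed. In clade A 10 of 14 passed and in clade B 2 of 18, as did Serpinc1, Serpind1, Serpinf1, Serpinf2, Serping1 and Serpinh1, each clade's members on the array, and neither of the clade I genes Serpini1 and Serpini2. Of the 22 others, 19 were above 16 units in no mouse: Serpina1f, Serpina3a, Serpina9, Serpinb11, Serpinb12, Serpinb1a, Serpinb1b, Serpinb2, Serpinb3a, Serpinb5, Serpinb6c, Serpinb7, Serpinb8, Serpinb9b, Serpinb9c, Serpinb9d, Serpinb9g, Serpini1 and Serpini2. Their probe sets bound too little for a level, which says nothing firmer about their transcripts. Serpina5, the protein C inhibitor, was above it in 3 mice (2 wild type and 1 MCAD-/-, all with LPS), with a highest value of 18.3 units. Serpinb6b was above it in 4 mice (3 wild type with LPS and 1 MCAD-/- with vehicle), up to 39.0 units, and Serpinb6e in 2 wild type mice, up to 17.9 units. Serpina3i passed through 9 arrays that were all from LPS mice, so that it had to differ between injections to be tested at all. Serpinh1 passed on 12 arrays, 10 of them from LPS mice, and would not have passed without those either.

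**Figure D1:**
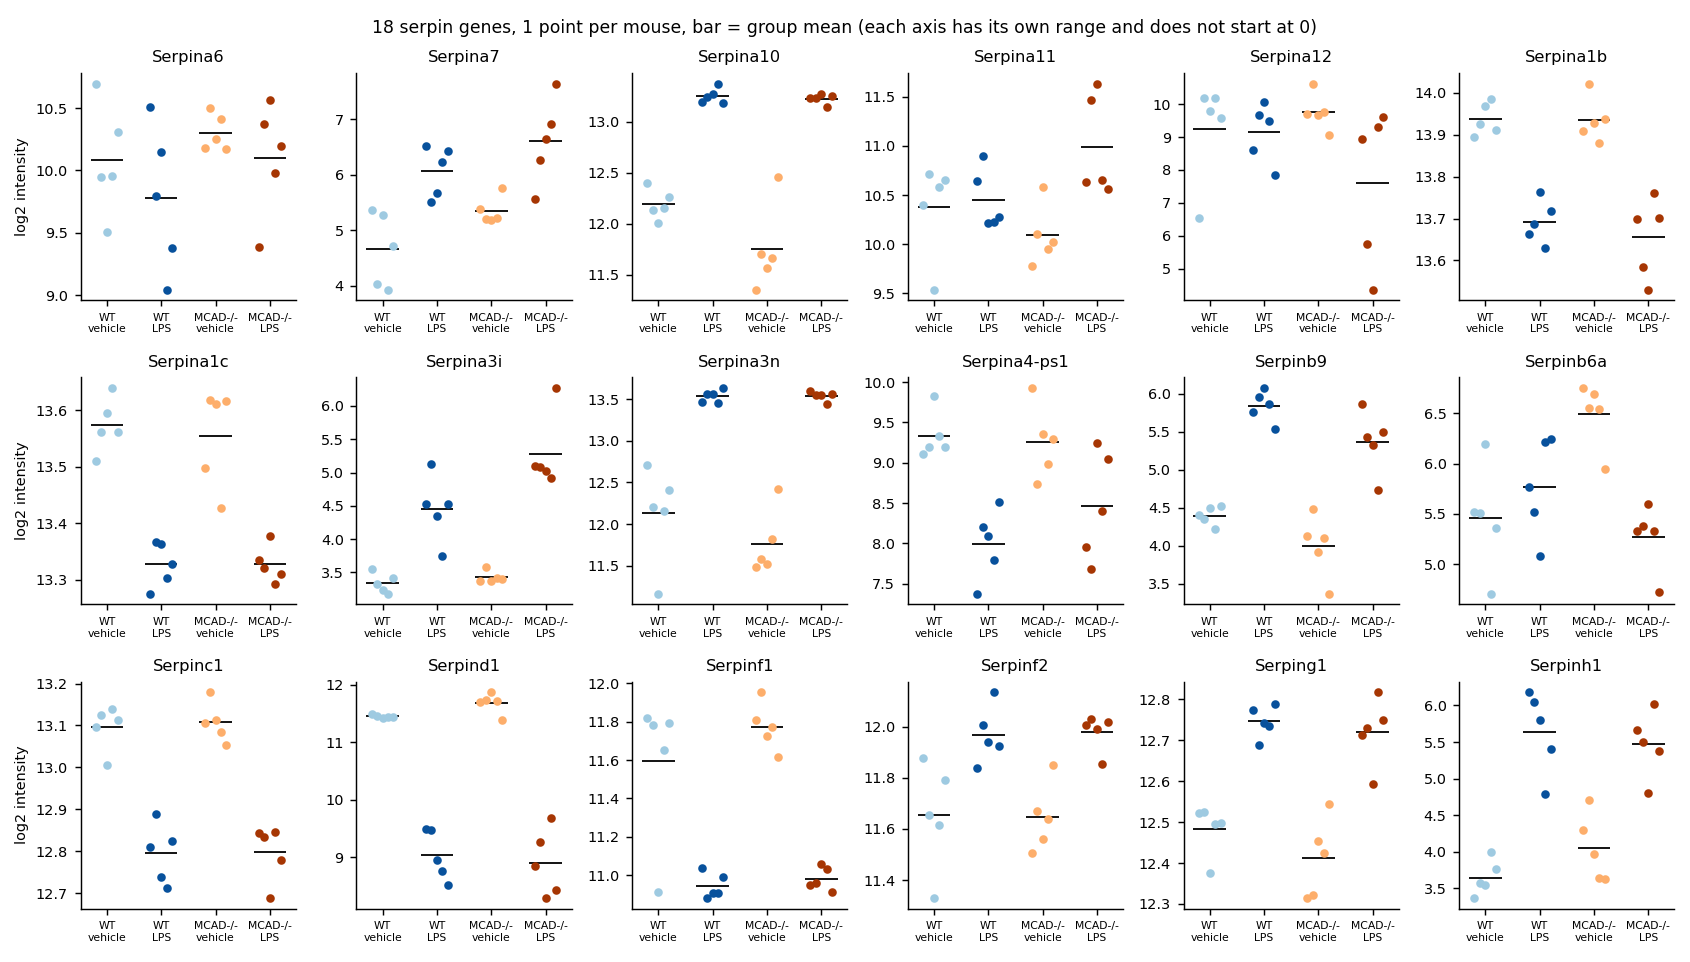
Each panel plots 1 of the 18 tested serpin genes as log2 intensity (vertical axis, with its own range) for the 4 groups of 5 mice, 1 point a mouse, with a bar at the group mean. Serpind1 drops from 2683 to 3750 units in the vehicle mice to 312 to 817 units in the LPS mice, while Serpina3n reaches 11110 to 12740 units in the LPS mice of both genotypes.

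The first question was how the serpins answered LPS in each genotype. In wild type mice the inhibitors Serpina3n, Serpina10, Serpinb9, Serpinf2 and Serping1 and the carrier Serpina7 rose, and Serpind1, Serpina4-ps1, Serpinf1, Serpinc1, Serpina1b and Serpina1c fell. With Serpina3i and Serpinh1, which were tested only through their LPS values, 14 of the 18 tested members passed, 8 higher and 6 lower, where 64% of all tested genes passed, 40% higher and 24% lower. In MCAD-/- mice 17 passed, 9 higher and 8 lower, where 65.7% of all tested genes passed, 38.1% higher and 27.6% lower. The median log2 change of the tested members was 0.17 in wild type and 0.05 in MCAD-/-, against 0.18 and 0.14 over all 8774 tested genes. Most genes of these livers passed this test. Counts of members, and of the other gene lists below, are therefore to be read beside those shares. Serpina3i and Serpinh1 support nothing here, since the filter fixed their direction, and 759 of all tested genes likewise passed only with the help of LPS arrays. Without such genes, 12 of 16 members passed in wild type (6 higher, 6 lower) and 15 in MCAD-/- mice (7 higher, 8 lower), against 62.3% and 64.5% of the other tested genes. The members' medians were then -0.02 and -0.22, against 0.11 and 0.07. The 12 called in wild type also passed in MCAD-/- mice, with the same sign. In tissue RNA, fewer cells of a type and less RNA per cell cannot be told apart. The summed level of the 9 hepatocyte markers ran from 99210 to 112100 units over the vehicle mice and from 81370 to 89860 units over the LPS mice. Of these markers 5 of the 9 were lower with LPS in wild type and 7 in MCAD-/- mice, and their part in the falls of serpins was not tested.

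**Figure D2:**
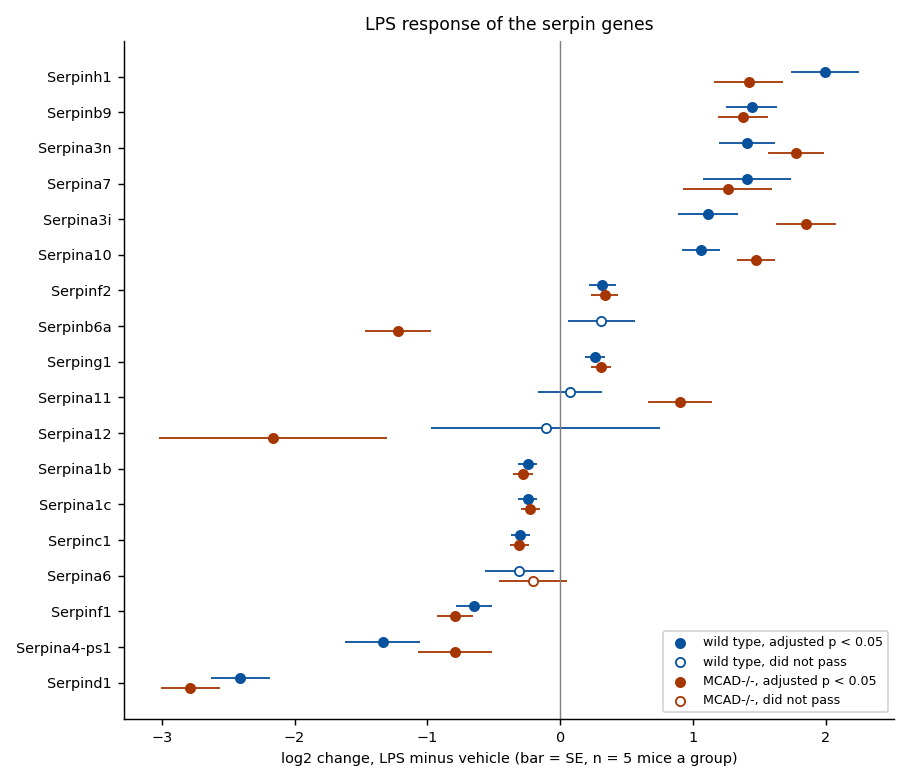
The log2 change, LPS minus vehicle (horizontal axis), of the 18 tested serpins with its standard error as a bar, in wild type (blue) and MCAD-/- mice (brown), 5 mice a group; filled points passed an adjusted p of 0.05. Serpind1 stands at the bottom with -2.41 in wild type and -2.79 in MCAD-/- mice, the points of Serpinb6a and Serpina12 lie far apart between genotypes, and those of Serpina3i and Serpinh1 rest on vehicle values at or near the floor, so that their sizes are not exact.

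Among the inhibitors of clotting enzymes, Serpind1 fell most, Serpinc1 fell slightly and Serpina10 rose. Serpind1 encodes heparin cofactor II, which inhibits thrombin. Wild type Serpind1 was measured at 2868, 2812, 2739, 2762 and 2785 units after vehicle and at 720.4, 711, 497, 432 and 367 units after LPS. MCAD-/- values of Serpind1 were 3338, 3422, 3750, 3358 and 2683 units after vehicle and 460.4, 615, 312, 817 and 343 units after LPS. Every LPS mouse lay far below every vehicle mouse of its genotype. The log2 change was -2.41 ± 0.22 (SE) in wild type (5.31-fold lower, adjusted p = 1.59e-08) and -2.79 ± 0.22 in MCAD-/- (6.89-fold lower, adjusted p = 1.84e-09). The LPS mice also varied more, with a log2 SD of 0.43 and 0.58 against 0.03 and 0.18 with vehicle.

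Serpinc1 encodes antithrombin, the main plasma inhibitor of thrombin and factor Xa. For Serpinc1, the wild type values were 8755, 8928, 8227, 9024 and 8869 units after vehicle and 7177, 7589, 6836, 6709 and 7251 units after LPS. As for MCAD-/- mice, Serpinc1 read 8822, 9278, 8862, 8691 and 8502 units after vehicle and 7354, 7306, 6599, 7356 and 7024 units after LPS. The groups did not overlap, but the shift was small: 1.23-fold lower in wild type (log2 -0.30 ± 0.07, SE, adjusted p = 0.00114) and 1.24-fold lower in MCAD-/- (-0.31 ± 0.07, adjusted p = 0.000865).

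Serpina10, the inhibitor that acts on factor Xa together with protein Z, went the other way. Serpina10 stood at 5391, 4491, 4109, 4571 and 4900 units in the wild type vehicle group and at 9349, 9692, 9890, 10600 and 9316 units in the wild type LPS group. Without MCAD, Serpina10 was at 2613, 3341, 3031, 3233 and 5618 units after vehicle and at 9583, 9592, 9858, 9057 and 9715 units after LPS. The LPS mice of both genotypes came together at 9057 to 10600 units from vehicle levels that were lower and more spread, and no vehicle mouse reached them. The log2 change was 1.06 ± 0.14 (SE) in wild type (2.09-fold, adjusted p = 2.51e-06) and 1.48 ± 0.14 in MCAD-/- (2.78-fold, adjusted p = 3.07e-08).

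The clotting factors that these serpins act on, and their cofactors, were measured beside them. Of 20 tested genes of that list 5 were higher and 8 lower with LPS in wild type, and 6 higher and 9 lower in MCAD-/- mice. The median log2 change was -0.19 in each. Over all tested genes 40% were higher and 24% lower in wild type, and 38.1% and 27.6% in MCAD-/- mice. Klkb1, which encodes plasma prekallikrein, fell by 3.96 on the log2 scale in wild type and by 5.03 in MCAD-/- mice. Of the 20, Procr, Thbd and Vwf passed the filter only with the help of LPS arrays. Procr, the endothelial protein C receptor, averaged under 16 units with vehicle, and 108 units in wild type and 61.6 units in MCAD-/- mice with LPS. Proc, protein C itself, was 2.39-fold lower with LPS in MCAD-/- mice. Of 6 platelet markers on the array 1 was tested, Pf4, again only through LPS arrays, with a mean under 16 units with vehicle in both genotypes, and of 19.9 units in wild type and 24.2 units in MCAD-/- mice with LPS.

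In fibrin breakdown and the complement and contact systems the serpin changes were small and upward. Serpinf2 encodes alpha-2-antiplasmin, the fast inhibitor of plasmin. Wild type Serpinf2 was measured at 3759, 3221, 2572, 3141 and 3540 units after vehicle and at 3658, 4111, 3933, 4500 and 3890 units after LPS. MCAD-/- values of Serpinf2 were 2909, 3259, 3022, 3187 and 3694 units after vehicle and 4116, 4181, 4071, 3707 and 4149 units after LPS. The wild type groups overlapped and the MCAD-/- groups did not. Serpinf2 was 1.24-fold higher with LPS in wild type (log2 0.32 ± 0.10, SE, adjusted p = 0.0105) and 1.26-fold higher in MCAD-/- (0.34 ± 0.10, adjusted p = 0.00702). Without wild type vehicle mouse 3 and wild type LPS mouse 4, the wild type change of Serpinf2 was 0.19 and no longer passed (adjusted p = 0.0675).

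Serping1 encodes the C1 inhibitor, which acts on C1r, C1s and plasma kallikrein. For Serping1, the wild type values were 5880, 5891, 5315, 5774 and 5787 units after vehicle and 7003, 6603, 6851, 6820 and 7072 units after LPS. As for MCAD-/- mice, Serping1 read 5092, 5115, 5606, 5494 and 5976 units after vehicle and 6715, 6798, 6178, 7220 and 6888 units after LPS. All LPS values lay above all vehicle values within a genotype. The increase was 1.20-fold in wild type (log2 0.26 ± 0.08, SE, adjusted p = 0.00503) and 1.24-fold in MCAD-/- (0.31 ± 0.08, adjusted p = 0.00135).

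Genes of these systems were measured too. Of 7 tested genes of the plasminogen system 1 rose and 5 fell in wild type, and 1 rose and 2 fell in MCAD-/- mice. Plg, plasminogen, fell by 0.38 on the log2 scale in wild type, and Vtn, vitronectin, rose by 0.47 and 0.43. Of 7 tested complement proteases 1 rose and 4 fell in wild type, and 0 rose and 5 fell in MCAD-/- mice. Masp1, a protease of the lectin pathway, fell by 0.62 and 1.00, and Cfi, complement factor I, by 0.46 and 0.39.

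Serpinf1 lies next to Serpinf2 in the order of the members on chromosome 11 and moved the opposite way. It encodes PEDF, a secreted serpin that inhibits no protease and restrains blood vessel growth. Serpinf1 stood at 3612, 3528, 1929, 3223 and 3545 units in the wild type vehicle group and at 2101, 1883, 1919, 1919 and 2033 units in the wild type LPS group. Without MCAD, Serpinf1 was at 3582, 3969, 3386, 3493 and 3135 units after vehicle and at 1973, 1987, 2131, 2089 and 1929 units after LPS. Wild type vehicle mouse 3, at 1929 units, lay among the LPS mice, and the other vehicle mice of both genotypes lay above them. The log2 change was -0.65 ± 0.13 (SE) in wild type (1.57-fold lower, adjusted p = 0.000291) and -0.79 ± 0.13 in MCAD-/- (1.73-fold lower, adjusted p = 3.32e-05). Without that mouse the wild type change was -0.82. Both Serpinf1 probe sets fell in each genotype, by 0.65 to 1.00 on the log2 scale in wild type and by 0.79 to 1.16 in MCAD-/- mice.

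The inhibitors of neutrophil enzymes split into a group that fell slightly and a group that was higher with LPS. Serpina1b and Serpina1c belong to the mouse alpha-1-antitrypsin genes, whose product inhibits neutrophil elastase. Wild type Serpina1b was measured at 15240, 15550, 16020, 16230 and 15420 units after vehicle and at 12960, 13200, 13910, 12680 and 13480 units after LPS. MCAD-/- values of Serpina1b were 15380, 16640, 15600, 15090 and 15690 units after vehicle and 13310, 12280, 11830, 13890 and 13320 units after LPS. It was 1.18-fold lower with LPS in wild type (log2 -0.24 ± 0.07, SE, adjusted p = 0.00622) and 1.21-fold lower in MCAD-/- (-0.28 ± 0.07, adjusted p = 0.00224), with no overlap between groups. For Serpina1c, the wild type values were 11670, 12090, 12370, 12770 and 12090 units after vehicle and 9909, 10570, 10540, 10110 and 10290 units after LPS. As for MCAD-/- mice, Serpina1c read 11570, 12580, 12510, 11010 and 12570 units after vehicle and 10340, 10230, 10650, 10030 and 10160 units after LPS. The groups did not overlap here either. The decrease was 1.19-fold in wild type (log2 -0.25 ± 0.07, SE, adjusted p = 0.00500) and 1.17-fold in MCAD-/- (-0.23 ± 0.07, adjusted p = 0.00859). The copies are alike enough that their probes can share transcripts, so the split between them is uncertain, as is the part of other copies. A further Serpina1b probe set changed by -0.43 in wild type and by -0.20 in MCAD-/- mice, where it did not pass (adjusted p = 0.0897). Serpina1f was above 16 units in no mouse.

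Small changes of bright genes, and small differences between their groups, carry a limit of their own. Serpina10, Serpina1b, Serpina1c, Serpina3n, Serpinc1, Serpinf2 and Serping1, 7 of the 18 tested members, ranked on average within the brightest 1% of probe sets, on arrays whose highest value was 22110 to 24830 units. Whether the array compresses differences at such levels was not tested. This holds too for the close LPS values of Serpina10 and Serpina3n in both genotypes.

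Serpina3n and Serpina3i, relatives of human alpha-1-antichymotrypsin in a group of genes that was multiplied in the mouse, were higher with LPS. Serpina3n is the member known as an acute phase gene of mouse liver. Serpina3n stood at 6682, 4712, 2287, 4572 and 5456 units in the wild type vehicle group and at 11330, 12110, 12090, 11230 and 12740 units in the wild type LPS group. Without MCAD, Serpina3n was at 2873, 3066, 2932, 3617 and 5474 units after vehicle and at 12380, 11980, 11990, 11110 and 12070 units after LPS. All LPS mice reached 11110 to 12740 units, whichever their genotype, and the vehicle mice spread from 2287 to 6682 units. The log2 change was 1.41 ± 0.21 (SE) in wild type (2.66-fold, adjusted p = 8.80e-06) and 1.77 ± 0.21 in MCAD-/- (3.42-fold, adjusted p = 4.57e-07).

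Serpina3i was dim where it was seen at all. Wild type Serpina3i was measured at 11.8, 10.1, 9.38, 9.04 and 10.7 units after vehicle and at 23.1, 34.9, 20.4, 13.5 and 23.0 units after LPS. MCAD-/- values of Serpina3i were 10.4, 12.0, 10.4, 10.6 and 10.5 units after vehicle and 34.4, 33.9, 32.5, 30.4 and 77.3 units after LPS. Every vehicle mouse was under 16 units, so the difference has a lower bound only, at least 1.37-fold in wild type and at least 2.43-fold in MCAD-/- mice, and is given with no test. Serpina3a stayed at or under 8.49 units in all 20 mice. The Serpina3 genes are similar in sequence, and how far the Serpina3i probe set also bound transcripts of Serpina3n was not tested.

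Markers of neutrophils moved with the injection in the same samples. The 4 tested markers of 10 on the array, Mmp8, Ngp, S100a8 and S100a9, passed the filter only with the help of LPS arrays, so that they had to be higher there. The summed level of the 10 ran from 47.6 to 221 units over the vehicle mice and from 1886 to 3992 units over the LPS mice. S100a9, a calcium-binding protein abundant in neutrophils, averaged under 16 units with vehicle, and 1169 units in wild type and 1456 units in MCAD-/- mice with LPS. Mmp9, Camp, Ltf, Csf3r and Cxcr2 were under 16 units in every mouse. Of 10 genes of neutrophil and mast cell serine proteases, the targets of these serpins, 0 passed the filter on low values. The part of these cells in the serpin changes was not tested. Cathepsins, proteases of the lysosome, were mixed, with 4 of 11 tested higher and 3 lower in wild type and 3 higher and 5 lower in MCAD-/- mice, among them Ctsl, higher by 0.60 and 0.54 on the log2 scale.

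Serpina10, Serpina6, Serpina1b, Serpina1c, Serpina11, Serpina12, Serpina4-ps1, Serpina3i and Serpina3n are the tested ones of 13 members on mouse chromosome 12, listed in gene order with Serpina1f, Serpina9, Serpina5 and Serpina3a between them. The changes did not run one way along the chromosome. Serpina10 rose at one end of the list and Serpina3n at the other, while Serpina1b, Serpina1c and Serpina4-ps1 between them fell in both genotypes.

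**Figure D3:**
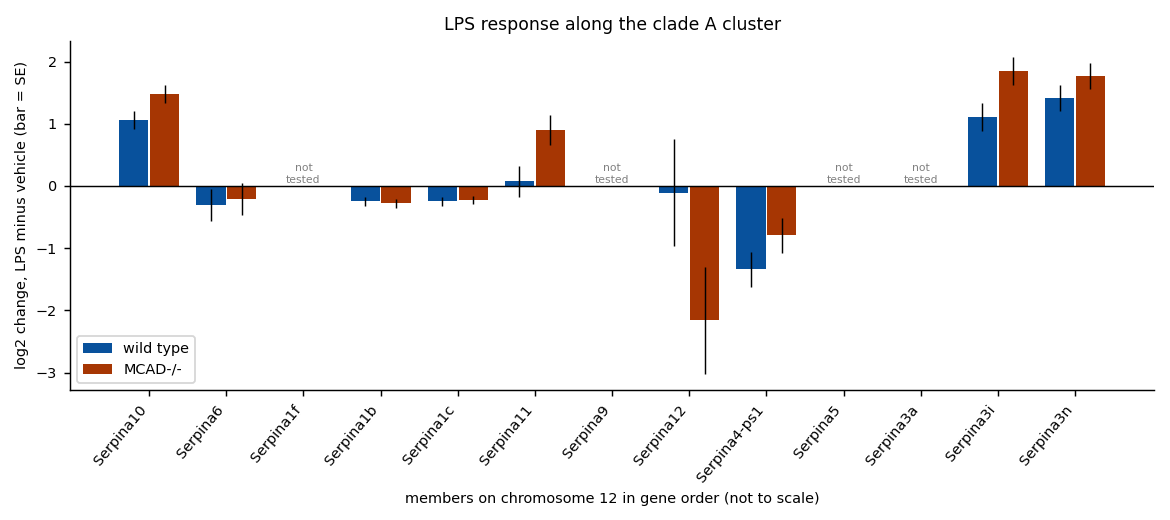
The log2 change, LPS minus vehicle (vertical axis), of the 13 members on chromosome 12 in gene order, with distances not to scale; blue columns are wild type, brown columns MCAD-/- mice, and the line on each is the standard error. Columns point up at both ends of the order, for Serpina10 (1.06 and 1.48) and Serpina3n (1.41 and 1.77), and down for Serpina4-ps1 (-1.34 and -0.79); 4 members were not tested.

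Of the other chromosome 12 members, Serpina4-ps1 fell in both genotypes. Its symbol marks it as a pseudogene of the kallistatin gene. For Serpina4-ps1, the wild type values were 553, 585, 912, 643 and 586 units after vehicle and 166, 296, 272, 222 and 365 units after LPS. As for MCAD-/- mice, Serpina4-ps1 read 976, 426, 658, 505 and 629 units after vehicle and 249, 205, 606, 339 and 528 units after LPS. The groups were apart in wild type and overlapped in MCAD-/- mice. The change was -1.34 ± 0.28 (SE) on the log2 scale in wild type (2.53-fold lower, adjusted p = 0.000356) and -0.79 ± 0.28 in MCAD-/- (1.73-fold lower, adjusted p = 0.0181). Leaving out MCAD-/- LPS mouse 1, MCAD-/- LPS mouse 2 or MCAD-/- vehicle mouse 1 ended the MCAD-/- call (adjusted p up to 0.0651). All 3 of its probe sets fell in both genotypes, by 1.34 to 1.86 in wild type and by 0.79 to 1.06 in MCAD-/- mice.

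Serpina12 encodes vaspin, an inhibitor of kallikrein 7 first described as a product of fat tissue. Serpina12 stood at 93.5, 1154, 895, 1154 and 762 units in the wild type vehicle group and at 392, 820.4, 1076, 725 and 232 units in the wild type LPS group. Without MCAD, Serpina12 was at 834, 1577, 816, 862 and 534 units after vehicle and at 490.1, 54.4, 20.6, 637 and 785 units after LPS. MCAD-/- LPS mice 2 and 3 were far below the other 3, and wild type vehicle mouse 1 was far below its group. The log2 change was -0.11 ± 0.86 (SE) in wild type, which did not pass (adjusted p = 0.918; -0.79 without wild type vehicle mouse 1, adjusted p = 0.413), and -2.16 ± 0.86 in MCAD-/- (4.48-fold lower, adjusted p = 0.0332). Without MCAD-/- LPS mouse 3 the change was -1.35 and did not pass (adjusted p = 0.124), and without mouse 2 of that group it was -1.70 (adjusted p = 0.0987). Leaving out MCAD-/- vehicle mouse 2 or 4 ended the call too (adjusted p = 0.0737 and 0.0513), as did a fit of the MCAD-/- groups alone (0.0551) and a trended robust prior (0.0515).

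Serpina11 was bright in all mice. Wild type Serpina11 was measured at 1355, 1685, 742, 1530 and 1610 units after vehicle and at 1597, 1909, 1192, 1196 and 1237 units after LPS. MCAD-/- values of Serpina11 were 879.6, 1104, 1530, 988 and 1043 units after vehicle and 1586, 2843, 3183, 1614 and 1511 units after LPS. MCAD-/- LPS mice 2 and 3 were high, and the other 3 lay near the highest vehicle mouse. It was 1.87-fold higher with LPS in MCAD-/- mice (log2 0.90 ± 0.24, SE, adjusted p = 0.00303). In wild type the difference was 0.07 ± 0.24 and did not pass (adjusted p = 0.806), and without wild type vehicle mouse 3 it was -0.14. The test of the difference between these responses did not pass for Serpina11 (0.83 ± 0.34, adjusted p = 0.181) nor for Serpina12 (-2.05 ± 1.22, adjusted p = 0.362). With array weights it passed for Serpina11 (1.08, adjusted p = 0.022).

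Of the hormone carriers, Serpina7 rose and Serpina6 did not pass. Serpina7, on the X chromosome, encodes thyroxine-binding globulin. For Serpina7, the wild type values were 41.4, 16.3, 38.5, 15.2 and 26.1 units after vehicle and 91.4, 45.5, 50.6, 75.3 and 85.6 units after LPS. As for MCAD-/- mice, Serpina7 read 41.4, 36.6, 36.3, 37.0 and 53.9 units after vehicle and 47.0, 76.6, 100.4, 120.0 and 199.6 units after LPS. The wild type groups were apart and the MCAD-/- groups overlapped. The increase was 2.65-fold in wild type (log2 1.41 ± 0.33, SE, adjusted p = 0.00102) and 2.40-fold in MCAD-/- (1.26 ± 0.33, adjusted p = 0.00251).

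Serpina6 encodes corticosteroid-binding globulin. Wild type vehicle mice ranged from 727 to 1658 units (median 992) and wild type LPS mice from 527 to 1460 units (median 886). MCAD-/- mice ranged from 1154 to 1450 units (median 1216) with vehicle and from 668 to 1511 units (median 1174) with LPS. Serpina6 groups overlapped in both genotypes. The log2 difference was -0.31 ± 0.26 (SE) in wild type (adjusted p = 0.305) and -0.20 ± 0.26 in MCAD-/- (adjusted p = 0.496).

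Genes that handle the same hormones mostly fell: 2 of 15 tested rose and 11 fell in wild type, and 2 rose and 9 fell in MCAD-/- mice. Dio1, the deiodinase that activates thyroxine, fell by 3.93 and 3.41 on the log2 scale, and Akr1d1, a reductase that clears steroid hormones, by 4.45 and 4.70.

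Serpinh1, the collagen chaperone Hsp47, was higher with LPS than at vehicle levels near the floor. Serpinh1 stood at 10.3, 11.9, 11.7, 15.99 and 13.6 units in the wild type vehicle group and at 72.7, 65.8, 55.8, 27.6 and 42.4 units in the wild type LPS group. Without MCAD, Serpinh1 was at 19.7, 26.1, 15.7, 12.5 and 12.4 units after vehicle and at 50.5, 45.3, 27.8, 64.7 and 41.6 units after LPS. All 5 wild type vehicle mice were under 16 units, so the wild type difference is at least 3.12-fold. In MCAD-/- mice, where 2 vehicle mice were above 16 units, the fitted difference was 2.67-fold, a size that depends on the low values. Neither is given with a test, since the gene was tested only through its LPS values. Collagens and the enzymes that modify them were tested as 15 genes, P4ha2 only through LPS arrays, of which 11 were higher and 0 lower with LPS in wild type and 9 higher and 1 lower in MCAD-/- mice, with median log2 changes of 0.99 and 0.59. Col4a1, a basement membrane collagen, rose by 3.39 and 2.83 on the log2 scale, and Plod3, a lysyl hydroxylase of collagen, by 1.69 and 1.51.

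Serpinb9 and Serpinb6a were the 2 of 18 clade B genes that could be tested. Serpinb9 encodes the inhibitor of granzyme B, with which killer cells protect themselves from their own granules. Wild type Serpinb9 was measured at 21.1, 20.5, 22.6, 18.6 and 22.9 units after vehicle and at 54.2, 62.1, 67.6, 58.1 and 46.2 units after LPS. MCAD-/- values of Serpinb9 were 17.4, 22.3, 15.1, 17.1 and 10.3 units after vehicle and 58.4, 42.9, 40.1, 26.7 and 44.9 units after LPS. No LPS mouse overlapped the vehicle mice of its genotype. The log2 change was 1.44 ± 0.19 (SE) in wild type (2.72-fold, adjusted p = 1.74e-06) and 1.37 ± 0.19 in MCAD-/- (2.59-fold, adjusted p = 2.98e-06). In MCAD-/- mice 2 vehicle values were under 16 units, so that this size depends on low values. Markers of T, NK and B cells, the lymphocytes among which killer cells are found, averaged at most 2.54 on the log2 scale and summed to at most 71.7 units in any mouse, and 0 of 10 on the array passed the filter on low values. Of 5 tested genes of granule and caspase killing 3 were higher and 1 lower with LPS in each genotype, with Casp4 and Il1b tested only through LPS arrays. Gsdmd, the pore protein gasdermin D, was 6.47-fold and 6.53-fold higher with LPS, and Il18, a cytokine cut by caspase 1, fell by 1.66 and 1.62 on the log2 scale.

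Protease inhibitors outside the serpin family were a point of comparison. Of 20 tested genes 8 were higher and 4 lower with LPS in wild type, and 8 higher and 6 lower in MCAD-/- mice. The shares over all tested genes were 40% higher and 24% lower in wild type, and 38.1% and 27.6% in MCAD-/- mice. The median log2 changes of the list were 0.26 and 0.10, and A2m, Timp1 and Wfdc2 were tested only through LPS arrays. Timp1, an inhibitor of matrix metalloproteases, averaged under 16 units with vehicle, and 61.6 units in wild type and 37.9 units in MCAD-/- mice with LPS. A2m, alpha-2-macroglobulin, which traps proteases of many classes, averaged under 16 units with vehicle, and 424 units in wild type and 6967 units in MCAD-/- mice with LPS. With LPS it was 16.4-fold higher in MCAD-/- than in wild type mice (log2 4.04 ± 0.54, SE, adjusted p = 1.78e-05).

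The second question was whether the serpins differed between genotypes within an injection. With vehicle, 2 of the 18 tested members passed, Serpinb6a higher and Serpina10 lower in MCAD-/- mice, where 16.2% of all tested genes passed, 9.81% higher and 6.39% lower. With LPS 1 passed, Serpina3i, which was higher, where 20.6% of all tested genes passed, 8.75% higher and 11.8% lower. Serpina3i was above 16 units on 5 MCAD-/- LPS arrays and 4 wild type LPS arrays. The MCAD-/- LPS group alone was thus enough to pass it through the filter, so this call supports nothing here. The median log2 difference of the members was 0.01 with vehicle and 0.00 with LPS, against 0.04 and -0.03 over all tested genes. Both comparisons use the same mice as the LPS comparisons, so their values are not independent of those. Serpinc1, Serpina1b, Serpina1c, Serpinf2 and Serping1 had log2 differences from -0.07 to 0.01 with vehicle and from -0.04 to 0.01 with LPS, with standard errors of 0.07 to 0.10. The further Serpina1b probe set differed by -0.22 with vehicle, which did not pass in a fit over all probe sets (adjusted p = 0.156), and by 0.01 with LPS. Among the lists of partners, 4 of 20 clotting genes, 5 of 15 collagen genes, 2 of 11 cathepsins and 3 of 20 other inhibitors were higher in MCAD-/- mice with vehicle, and 0, 0, 1 and 2 were lower. Of these, Ctss, cathepsin S of antigen-presenting cells, was 2.38-fold higher, and Col4a1 1.90-fold. The clotting genes that were higher include Thbd and Vwf, which passed the filter only with the help of LPS arrays. With vehicle Thbd averaged 17.5 units in MCAD-/- and 6.34 units in wild type mice, and Vwf 15.8 and 8.12 units, all near or under the floor. In the caspase list 1 of 5 genes was called higher and 1 lower in MCAD-/- mice with each injection. The lower one was Il18, 1.48-fold with vehicle (adjusted p = 0.0153) and 1.44-fold with LPS (adjusted p = 0.0195). The higher one was Casp4, the caspase that senses LPS inside cells. It averaged 33.4 units in MCAD-/- LPS mice and under 16 units in the other 3 groups, so no fold is given. Casp4 passed the filter only with the help of LPS arrays, so its calls support nothing here.

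**Figure D4:**
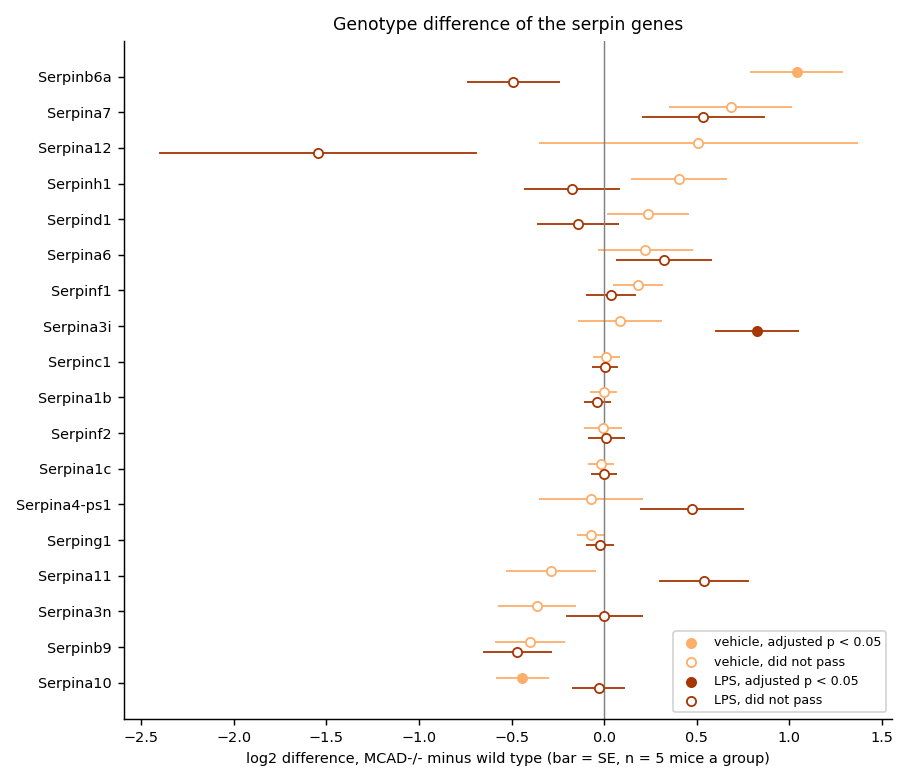
The log2 difference, MCAD-/- minus wild type (horizontal axis), of the 18 tested serpins with its standard error, with vehicle (light) and with LPS (dark), 5 mice a group; filled points passed an adjusted p of 0.05. The filled points are Serpinb6a (1.04) and Serpina10 (-0.44) with vehicle and Serpina3i (0.83) with LPS, and the bars of Serpina12 are the widest. Serpina3i passed the filter through LPS arrays alone.

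Serpina10, whose values per mouse are given above, was 1.36-fold lower in MCAD-/- mice with vehicle (log2 -0.44 ± 0.14, SE, adjusted p = 0.0398), and the groups overlapped through MCAD-/- vehicle mouse 5 at 5618 units. The call ended when any vehicle mouse other than wild type vehicle mouse 3 and MCAD-/- vehicle mouse 5 was left out (adjusted p from 0.0615 to 0.127), and in a fit of the vehicle groups alone (adjusted p = 0.117). With LPS the Serpina10 difference was -0.03 ± 0.14 (adjusted p = 0.912). Serpina3n had a difference of the same sign with vehicle, -0.36 ± 0.21 (adjusted p = 0.272), which passed once wild type vehicle mouse 3 was left out (-0.60, adjusted p = 0.0115). With array weights it passed too (-0.58, adjusted p = 0.00224). Serpina11 (-0.29, adjusted p = 0.473) and Serpina7 (0.68, adjusted p = 0.18) did not pass with vehicle. Array weights made both pass (-0.57, adjusted p = 0.0229, and 0.87, adjusted p = 0.0247). With LPS the Serpina3n difference was 0.00 ± 0.21. Serpina10 and Serpina3n ranked on average within the brightest 1% of probe sets, and the part of array compression in these differences was not tested. The interaction of Serpina3n and that of Serpina10 use the same LPS values. For Serpina3n the interaction was 0.36 ± 0.30 and did not pass (adjusted p = 0.534). It passed without wild type vehicle mouse 3, wild type LPS mouse 4 and MCAD-/- vehicle mouse 5 together (0.75, adjusted p = 0.0106). The interaction did not pass for Serpina10 (0.41 ± 0.20, adjusted p = 0.265), but did without MCAD-/- vehicle mouse 5 (0.59, adjusted p = 0.0137). It also passed with array weights (0.53, adjusted p = 0.0459).

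Serpina3i was 1.77-fold higher in MCAD-/- than in wild type mice with LPS (log2 0.83 ± 0.23, SE, adjusted p = 0.0135), with 30.4 to 77.3 units against 13.5 to 34.9 units. The values are given as a description, since the MCAD-/- LPS group alone could pass the gene through the filter. The groups overlapped, since wild type LPS mouse 2 was above all but MCAD-/- LPS mouse 5, and wild type LPS mouse 4 was under 16 units. Without MCAD-/- LPS mouse 5 the difference was 0.58 (adjusted p = 0.0292), and in a fit of the LPS groups alone it did not pass (adjusted p = 0.078). The test of whether the Serpina3i LPS response differed between genotypes did not pass (0.74 ± 0.32, adjusted p = 0.2). Its size is not exact, since every vehicle mouse was under 16 units. For Serpinb9 the LPS difference was -0.47 ± 0.19 and did not pass (adjusted p = 0.0851), while it did without MCAD-/- LPS mouse 1 (-0.59, adjusted p = 0.0331) and without MCAD-/- vehicle mouse 5 (adjusted p = 0.0491).

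In the fit used throughout, Serpinb6a was the 1 tested member whose LPS response differed between genotypes. It encodes an inhibitor that acts inside cells, with cathepsin G among its targets. For Serpinb6a, the wild type values were 45.7, 45.5, 73.3, 26.1 and 41.0 units after vehicle and 54.4, 45.9, 33.9, 74.2 and 75.8 units after LPS. As for MCAD-/- mice, Serpinb6a read 108, 93.6, 103, 93.4 and 61.5 units after vehicle and 40.2, 41.8, 48.4, 40.3 and 26.4 units after LPS. MCAD-/- mice with vehicle stood highest, with 4 of 5 above every other mouse of the study, and the other 3 groups overlapped one another. With vehicle it was 2.06-fold higher in MCAD-/- mice (log2 1.04 ± 0.25, SE, adjusted p = 0.00695). It was 2.33-fold lower with LPS in MCAD-/- mice (log2 -1.22 ± 0.25, adjusted p = 0.00027, no overlap), and in wild type the difference was 0.31 ± 0.25 (adjusted p = 0.289). The interaction, the MCAD-/- response minus the wild type response, was -1.53 ± 0.35 (SE, adjusted p = 0.0173). Over all tested genes 4.11% had such an interaction, 1.36% with a higher and 2.76% with a lower response in MCAD-/- mice. The median interaction was 0.01 over the members and -0.07 over all tested genes. The Serpinb6a interaction passed in all 31 other settings that were run for it, from -1.74 to -1.19.

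Of the lists of markers of other cells, those of endothelial, Kupffer and stellate cells were also highest in MCAD-/- mice with vehicle. Over 12 markers of liver sinusoidal endothelial cells the mean log2 level was 6.23 to 6.90 in MCAD-/- mice with vehicle, against 4.70 to 5.66 in wild type with vehicle, 5.07 to 5.80 in wild type with LPS and 4.82 to 5.68 in MCAD-/- with LPS. Of the 11 tested, 10 were higher in MCAD-/- mice with vehicle (median log2 1.44) and 6 had an interaction, all lower (median -1.48), and Pecam1 was under 16 units in every mouse. Over 12 markers of Kupffer cells and macrophages the ranges were 6.38 to 6.96, 5.58 to 6.28, 4.82 to 6.02 and 5.11 to 6.12 in the same order of groups, with 7 of 10 tested higher in MCAD-/- mice with vehicle. For 12 markers of stellate cells and fibroblasts they were 6.20 to 6.38, 5.32 to 5.95, 5.13 to 5.85 and 5.41 to 5.86, with 6 of 10 tested higher, and Col1a1 and Des were under 16 units in every mouse. By mean log2 the MCAD-/- vehicle mice lay above all others in each of these 3 lists. As summed units, the endothelial markers came to 1930 to 2828 in them against 574 to 1523 over the other groups. The Kupffer cell sums were 1906 to 2743 units in them and at most 1913 units in wild type vehicle mice, and the stellate cell sums were 2944 to 3247 units in them and at most 3004 units in MCAD-/- LPS mice, so these 2 sums overlapped. The part of these cells in the Serpinb6a values was not tested.

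**Figure D5:**
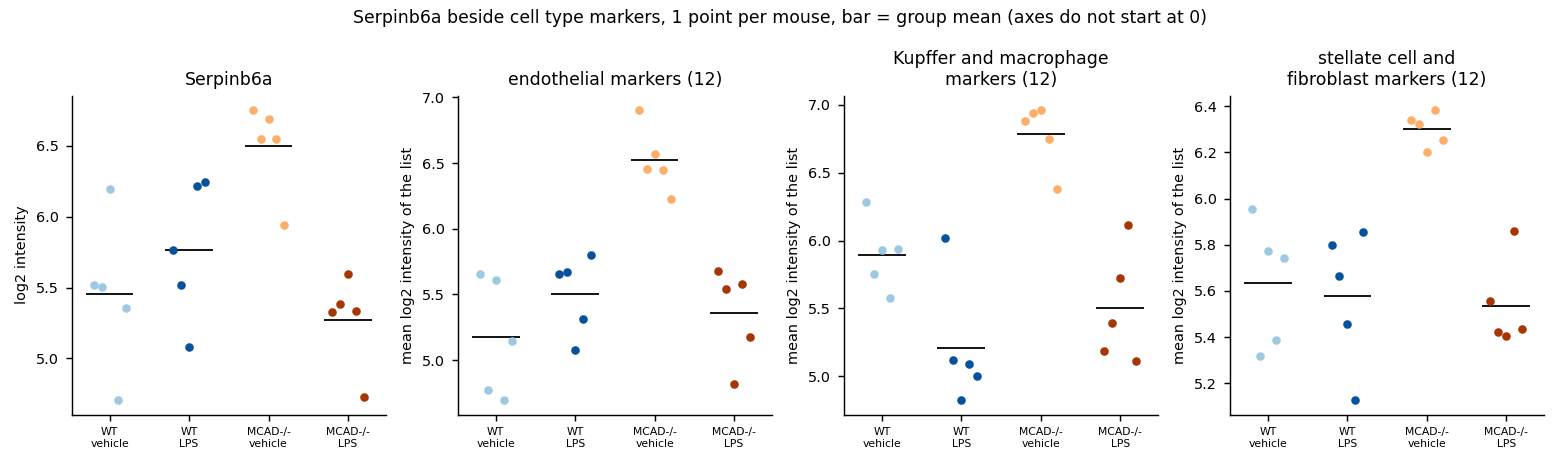
Log2 intensity of Serpinb6a (left panel) and the mean log2 intensity over 12 markers each of sinusoidal endothelial cells, Kupffer cells and macrophages, and stellate cells and fibroblasts, 1 point a mouse, with a bar at the mean of each group of 5; axes do not start at 0. The MCAD-/- vehicle mice are highest in every panel, at 61.5 to 108 units for Serpinb6a, where 1 of them overlaps other groups.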

How the data were processed

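Liver RNA of 20 mice was measured, 1 Affymetrix array a mouse. The deposited values are intensity on a linear scale, summarised per probe set with GCRMA per the submitters' processing notes. GCRMA removes background and puts the arrays on 1 scale, and its settings were not found in the labels. Dim probe sets end near a common low value, so a fold is given as a bound where all 5 mice of the lower group were under 16 units. Values were taken to log2 with no pseudocount. Genes were named from the platform annotation, matched to RefSeq (assembly GRCm38.p6) by gene ID for 40 of 40 members, and 3 probe sets that name several genes with a serpin among them were not used. A gene's brightest probe set over the 20 arrays stood for it, and genes above 16 units on at least 5 arrays were tested, 8774 in all.

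The 4 groups were fitted in 1 model with limma 3.58.1 (R 4.3.3, empirical Bayes), and p-values are two-sided, adjusted by Benjamini and Hochberg over the 8774 genes, with a threshold of 0.05; all adjusted p-values in the text are from this test or, where named, its alternatives. The labels call the mice biological replicates, and the number of arrays limits the precision. The pipeline was tested on simulated data. The members, the gene lists, the letter patterns and the tests were chosen with earlier results of these data known. Named were all serpins, and of each other list the counts and up to 3 genes with the smallest adjusted p in a comparison. Replicate numbers were not used to pair the mice. The deviations of same-numbered mice from their group means correlated at -0.121 to 0.284. Mice of different numbers were not compared in this way, so these values cannot decide whether the numbers pair the mice. Alternatives changed the filter, probe set choice, scaling, log scale, prior, array weights, the groups in the fit and the mice, and are reported at the end.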

Additional observations from a re-analysis of the deposited data

Results flagged for a closer look

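In 8 of 72 sets of 5 mice (18 tested serpins in 4 groups), 1 mouse lay apart from the other 4 by Dixon's criterion (critical value 0.71), which chance meets in about 1 in 20 groups. Wild type vehicle mouse 3, which had a high actin 3′ to 5′ ratio, was the low value for Serpina11 (742 units, next 1355), Serpinf1 (1929 units, next 3223) and Serping1 (5315 units, next 5774). Wild type vehicle mouse 1 was low for Serpina12, at 93.5 units with the next mouse at 762. MCAD-/- vehicle mouse 5, which had the highest neutrophil markers of its group, was low for Serpinb6a, at 61.5 units with the next at 93.4. MCAD-/- LPS mouse 4 was low for Serpinf2, at 3707 units with the next at 4071. Serpina3i had a high value of 77.3 units in MCAD-/- LPS mouse 5 (next 34.4) and of 12.0 units in MCAD-/- vehicle mouse 2 (next 10.6), the last of these under 16 units, where values follow the floor of the method.

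For Serpinb6a the LPS response differed between genotypes by the test of the difference itself, -1.53 on the log2 scale. Without MCAD-/- vehicle mouse 5 this value was -1.67 (adjusted p = 0.00934).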

How the results depend on the processing

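Over the members, 2811 values under other settings kept their side of the threshold, 21 lost a call, 15 gained one, and 0 reversed a called direction. The counts of members called were as follows. For LPS, no filter gave 18 in wild type and 21 in MCAD-/- mice of 40 members, the 64-unit filter 11 and 14 of 15, and the MCAD-/- groups alone or a trended robust prior 16 of 18. For MCAD-/- against wild type with LPS (1 called), the LPS groups fitted alone and a filter at 64 units gave 0, averaging all probe sets per gene and a pseudocount of 16 units gave 2, and no filter gave 3, the added ones being Serpina5 (-1.01) and Serpinb6b (-0.85), both dim; the 64-unit filter leaves Serpina3i out. For the vehicle groups (2 called), array weights gave 5, the groups alone 1 and no filter 1. The ones added by array weights were Serpina3n, Serpina7 and Serpina11. For the interaction (1 called), array weights gave 3, the added ones being Serpina10 and Serpina11. Leaving out wild type vehicle mouse 3, wild type LPS mouse 4 and MCAD-/- vehicle mouse 5, chosen after seeing the data, also gave 3. The causes of the other changes were not tested.

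With each mouse left out in turn, the counts ran from 14 to 14 for LPS in wild type, from 15 to 17 for LPS in MCAD-/-, from 1 to 3 between genotypes with vehicle, from 1 to 2 with LPS and from 1 to 2 for the interaction. Acadm ran from -6.90 to -6.12 with vehicle and from -6.04 to -5.06 with LPS.

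With the replicate number as a block the counts were 14, 17, 2, 1 and 1, as without it. Median centring or a further quantile normalization of the arrays ended no call of a member. Dim members such as Serpina3i and Serpinh1 are limited by signal close to background.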
